A study of Mus musculus with 9 samples.

Results

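Collagens, laminins and lysyl oxidases were examined in E14, a line of mouse embryonic stem cells, grown in 3 media. The genes were taken by name: every collagen chain gene of the form Col, number, a, number, every laminin alpha, beta or gamma chain gene, the 5 lysyl oxidases, and the matrix genes Nid1, Nid2, Hspg2, Sparc, Fn1 and Tinagl1. This gave 66 of the 24819 genes in the deposited table, of which 44 were collagens and 11 were laminins. All cells carried the same genotype as far as the labels say, grew on gelatin, and differed only in the medium named by the label. ES was serum-containing medium with LIF, a cytokine that holds mouse stem cells undifferentiated. 2iLIF was N2B27, a serum-free medium, with LIF and the 2i inhibitors, which block MEK and GSK3. EPSCM was expanded potential stem cell medium, whose recipe the labels do not give. Each medium had 3 libraries of polyadenylated RNA, and nothing in the labels says that they came from separate cultures, so the spread behind each p-value is that between these libraries and may be technical. E14 is a single cell line, so differences between lines were not measured.

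The extracellular matrix of early mouse embryos is largely basement membrane, a thin sheet under epithelia. Laminins, each a trimer of an alpha, a beta and a gamma chain, assemble into a first network on the cell surface. Collagen IV, a trimer of Col4a1 and Col4a2 chains, forms a second network, and the nidogens Nid1 and Nid2 and the proteoglycan perlecan (Hspg2) tie them together. Lysyl oxidases are secreted copper enzymes that oxidise lysines of collagen and elastin so that the fibres become crosslinked. Gelatin, on which these cells grew, is denatured collagen, and embryonic stem cells are known to deposit laminin of their own.

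Levels are given as FPKM, fragments per kilobase of transcript, scaled to the depth of the library, in the order of replicates 1, 2 and 3. FPKM divides by transcript length, so levels of different genes can be set side by side. Differences are between mean log2(FPKM + 1) values, with the standard error after ±, and understate the change of genes near or under 1 FPKM. A gene was called higher or lower where the limma adjusted p was under 0.05 and the difference was 1 or more in size. Genes needed 1 FPKM in at least 3 of the 9 libraries to be tested. That left 25 of the 66 members, against 12330 of all genes. Of these 25, 17 reached 1 FPKM in all 9 libraries. Col20a1, Lama3, Loxl1 and Loxl3 did so in the 3 libraries of 1 medium only and therefore entered the test because of the medium in which they were high. Col9a3 reached 1 FPKM in the 3 EPSCM libraries and in ES replicate 1, so it too entered the test because of EPSCM.

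Total fragment counts were not used here. Steps between the lowest FPKM values gave only a rough value, with 1 fragment per kilobase worth about 0.0315 to 0.0556 FPKM. Pou5f1, a factor that defines pluripotent cells, was at 1352 ± 162 FPKM in ES, 1064 ± 129 in 2iLIF and 627 ± 88.4 in EPSCM (SD, n = 3). In the same order of media, 6 stem cell markers summed to 3074 to 3574, 2281 to 2615 and 1418 to 1645 FPKM. Of these, Zfp42 had the order of Pou5f1, and the others did not all follow it. Mean Nanog was 326, 432 and 295 FPKM and mean Esrrb 248, 291 and 175, both highest in 2iLIF. Mean Sox2 was 254, 181 and 208 FPKM, lowest in 2iLIF. Utf1 had a mean of 536 FPKM in ES, 28.1 in 2iLIF and 28.4 in EPSCM. In each medium 1 library stood apart on the third principal component of all tested genes (6.46% of the variance): ES replicate 1, 2iLIF replicate 1 and EPSCM replicate 2. The matrix genes moved with it. Of the 25 tested members, 20, 20 and 23 had their highest value of the medium in that library, where 52.1%, 52.1% and 52.6% of all tested genes did. The median member exceeded the mean of the other libraries by 0.12, 0.076 and 0.13 on the log2 scale. Over all tested genes that median was 0.053, 0.045 and 0.051. Since each medium holds 1 such library, the shift was balanced over the media, and with these 3 libraries left out 9 members instead of 10 were called higher in EPSCM than in ES. Col20a1 then reached 1 FPKM in too few libraries to be tested.

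The summed level of the 66 members was lowest in ES, at 639, 599.97 and 594 FPKM. It was 969, 929 and 926 FPKM in 2iLIF and 1163, 1274 and 1174 FPKM in EPSCM. The media did not overlap in this sum. Fibronectin (Fn1) made up 19.4% to 19.7% of it in ES, 31.7% to 32.2% in 2iLIF and 36.0% to 36.3% in EPSCM. Collagens followed another order, with a summed 73.8 ± 5.89 FPKM (SD, n = 3) in ES, 25.6 ± 0.996 in 2iLIF and 112 ± 8.44 in EPSCM.

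**Figure D1:**
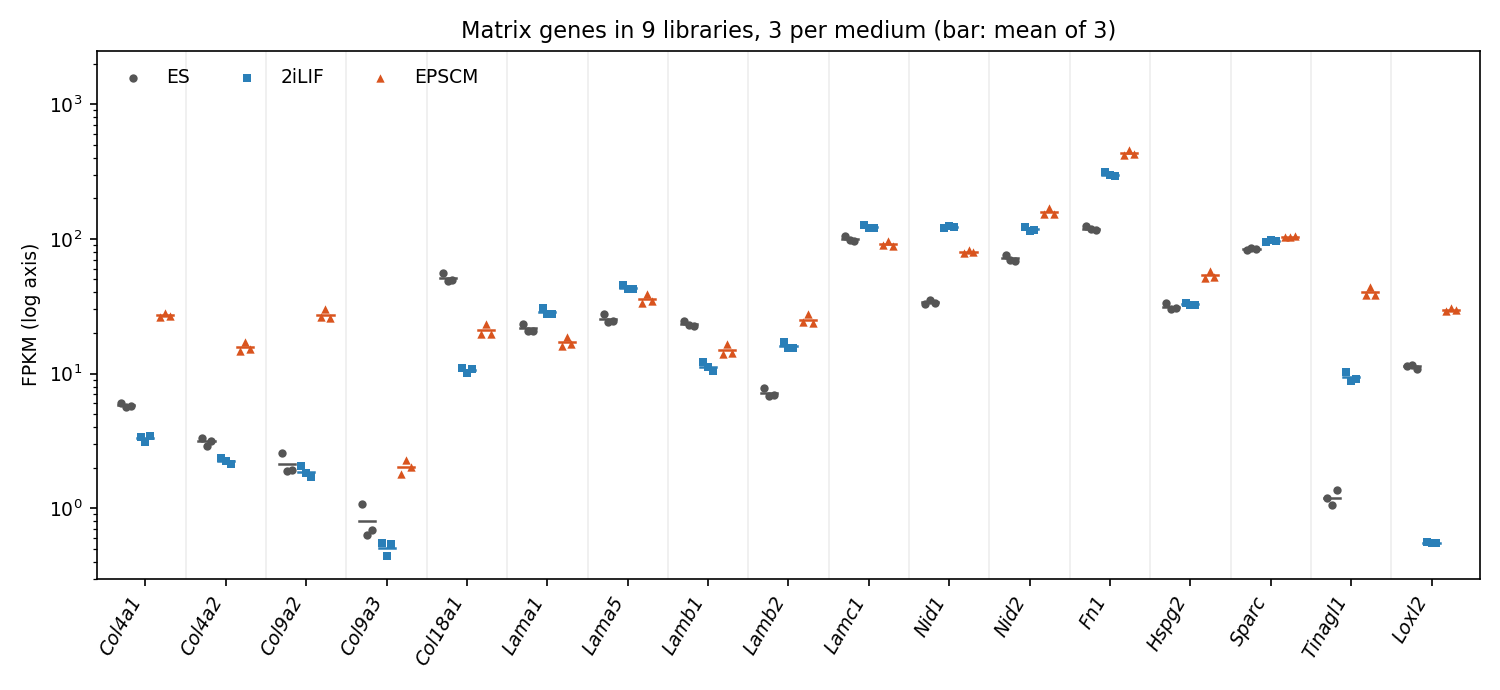
FPKM on a log axis of 17 matrix genes in the 9 libraries, with 1 point per library and a bar at the mean of the 3 libraries of ES (grey circles), 2iLIF (blue squares) and EPSCM (orange triangles). Col4a1, Col4a2, Col9a2 and Tinagl1 were highest in EPSCM, Col18a1 and Lamb1 in ES, and Nid1 in 2iLIF.

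In EPSCM against ES, 10 members were called higher and 1 lower among the 25 tested, beside 11.7% of all tested genes called higher and 7.97% lower (19.7% in either direction). The 10 were Tinagl1, Col9a2, Col4a1, Col4a2, Fn1, Lamb2, Loxl2, Nid1, Col20a1 and Nid2, and the 1 lower was Col18a1. Against 2iLIF, EPSCM had 8 higher (10.1% of all tested genes) and 2 lower (5.91%, with 16.1% in either direction). The 8 were Loxl2, Col9a2, Col4a1, Col4a2, Tinagl1, Col5a3, Col20a1 and Col9a3, and Loxl3 was among the lower ones. In 2iLIF against ES, 5 were higher (7.62%), among them Tinagl1, Nid1, Fn1 and Lamb2, and 3 lower (7.12%, with 14.7% in either direction), namely Loxl2, Col18a1 and Col5a3. The 3 comparisons share libraries in pairs and are not independent. The median difference of the tested members was 0.75, 0.60 and 0.13 in the 3 comparisons, beside 0.093, 0.028 and 0.026 over all tested genes. By the F test for any difference among the media all 25 passed at an adjusted p under 0.05, but so did 85.5% of all tested genes.

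**Figure D2:**
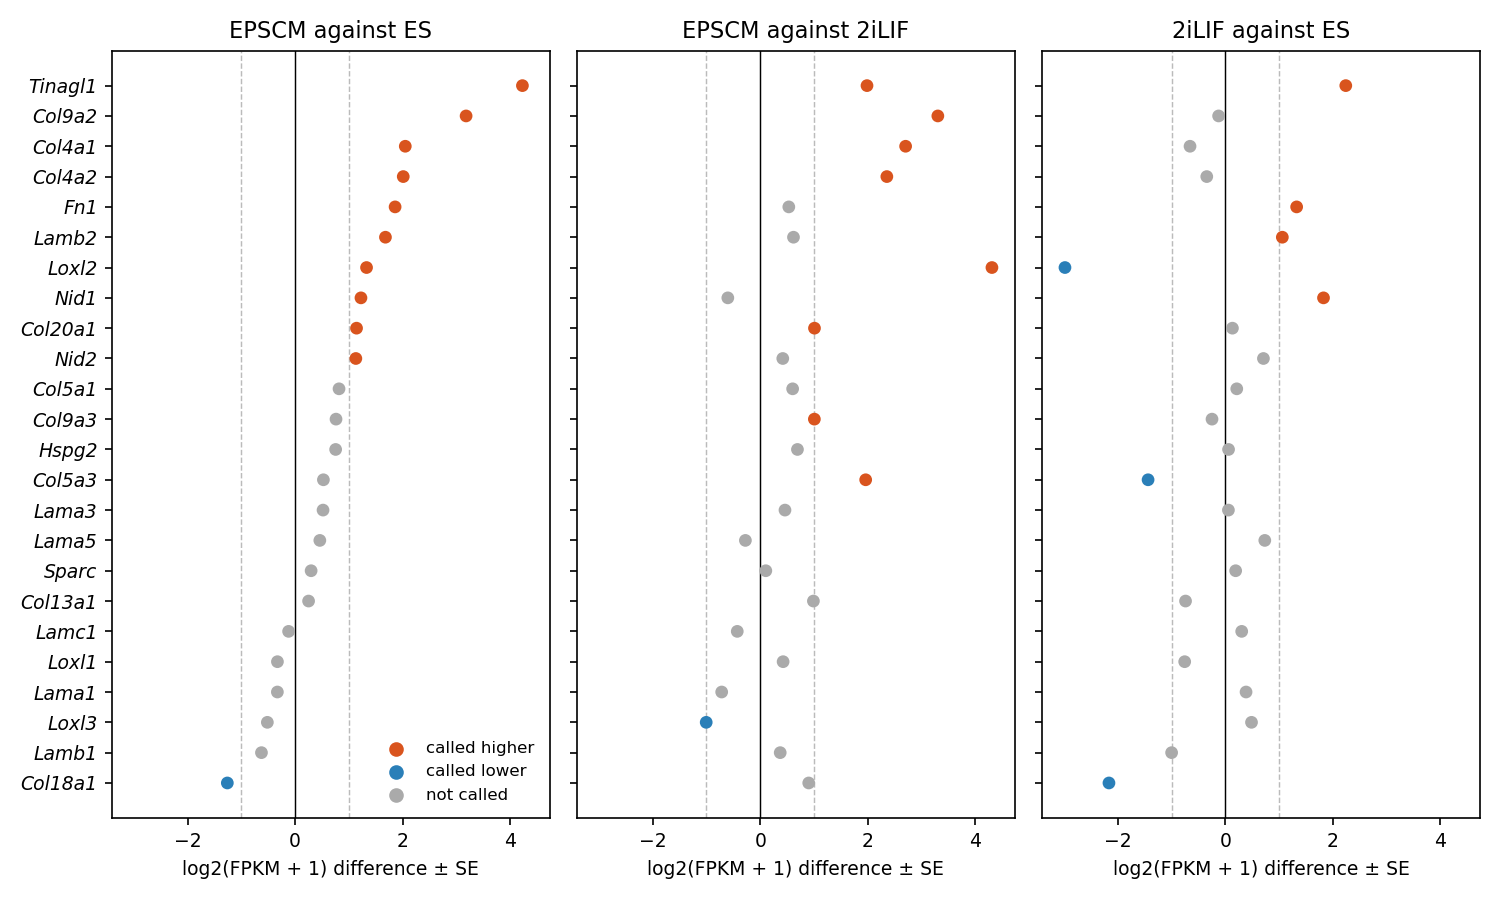
Differences in mean log2(FPKM + 1) with standard errors, many smaller than the points, for 24 of the 25 tested members in each of the 3 pairs of media, sorted by the first and coloured by call, with dashed lines at a difference of 1 in either direction. Tinagl1 was called higher in all 3, and Loxl2 ranged from -2.98 in 2iLIF against ES to 4.31 in EPSCM against 2iLIF.

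Collagen IV is the network collagen of basement membranes, and its genes Col4a1 and Col4a2 lie head to head. In the RefSeq table of GRCm38.p6, Col4a2 starts at position 11312805 of chromosome 8 on the plus strand and Col4a1 at 11312826 on the minus strand, so their first exons share 22 bases and they are transcribed away from one another. That stretch is shown because both genes changed together. It lies at chr8:11312801-11312830, is read on the plus strand, and has the shared bases in capitals.

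Col4a1 and Col4a2 start region: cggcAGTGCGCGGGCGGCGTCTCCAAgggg

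Col4a1 was at 6.05, 5.62 and 5.71 FPKM in ES, at 3.38, 3.10 and 3.45 in 2iLIF and at 26.2, 28.3 and 26.8 in EPSCM. Its partner Col4a2 was at 3.32, 2.89 and 3.18 FPKM in ES, 2.36, 2.24 and 2.14 in 2iLIF and 14.8, 17.1 and 15.1 in EPSCM. Both genes had their lowest libraries in 2iLIF and their highest in EPSCM, with no overlap between media. Col4a1 was higher in EPSCM by 2.05 ± 0.06 against ES (limma adjusted p = 1.70e-08) and by 2.71 ± 0.06 against 2iLIF (4.63e-09). Col4a2 was higher by 2.01 ± 0.07 (adjusted p = 4.94e-08) and by 2.36 ± 0.07 (adjusted p = 2.01e-08). Between 2iLIF and ES neither passed the fold limit, at -0.66 ± 0.06 for Col4a1 and -0.34 ± 0.07 for Col4a2.

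While the level of the pair changed, the ratio of Col4a1 to Col4a2 within a library moved less. It was 1.86 ± 0.0804 in ES, 1.48 ± 0.118 in 2iLIF and 1.74 ± 0.0652 in EPSCM (SD, n = 3), and ratios within a library do not depend on library scaling. The other collagen IV chains, Col4a3 to Col4a6, did not pass the filter. Col4a5 reached 0.174 FPKM in its highest library and Col4a3 and Col4a4 at most 0.0130.

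Col9a2 was the collagen with the largest difference between EPSCM and ES. It encodes a chain of collagen IX, which decorates collagen fibrils and is best known from cartilage. It stood at 2.59, 1.87 and 1.93 FPKM in ES, 2.07, 1.83 and 1.69 in 2iLIF and 26.2, 30.1 and 25.7 in EPSCM. The ES and 2iLIF libraries overlapped, and every EPSCM library lay far above them. The difference was 3.18 ± 0.10 against ES (limma adjusted p = 2.93e-08) and 3.31 ± 0.10 against 2iLIF (2.12e-08). Collagen IX is a trimer with the products of Col9a1 and Col9a3. Col9a1 was at or under 0.064 FPKM in all 9 libraries. Col9a3 was at 1.07, 0.632 and 0.692 FPKM in ES, 0.547, 0.438 and 0.537 in 2iLIF and 1.81, 2.27 and 2.03 in EPSCM. Its call against 2iLIF, 1.01 ± 0.10 (adjusted p = 1.77e-05), was lost without 2iLIF replicate 2 (0.97) or EPSCM replicate 2 (0.95), after quantile normalization (0.67) and after median ratio scaling (0.998), and 6.07% of its exonic bases also belong to Tcfl5 on the other strand.

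Col18a1 went the other way. It encodes a basement membrane collagen whose C-terminal fragment is endostatin. Its level was 55.9, 48.9 and 49.6 FPKM in ES, 11.03, 10.2 and 10.9 in 2iLIF and 19.6, 23.5 and 19.6 in EPSCM. ES libraries were the highest of all and those of 2iLIF the lowest, without overlap. Col18a1 was lower than in ES by -1.26 ± 0.08 in EPSCM (limma adjusted p = 1.41e-06) and by -2.17 ± 0.08 in 2iLIF (6.44e-08). It was the most abundant collagen gene in ES and 2iLIF, and in EPSCM it came after Col9a2 and Col4a1.

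Fibrillar collagens, the rope-forming collagens of connective tissue, were low. Col5a1 and Col5a3, chains of the collagen V that seeds fibrils, were the only 2 of 11 that were tested. Col5a3 was at 2.13, 1.78 and 1.78 FPKM in ES and at 3.01, 3.56 and 2.94 in EPSCM, but at 0.0758, 0.0551 and 0.0707 in 2iLIF. It was lower in 2iLIF than in ES by -1.44 ± 0.07 (limma adjusted p = 3.42e-07) and higher in EPSCM than in 2iLIF by 1.96 ± 0.07 (5.50e-08). Col5a1 ranged from 1.71 to 4.28 FPKM over all 9 libraries and was called in no comparison. The chains of collagen I, Col1a1 and Col1a2, stayed at or under 0.401 and 0.0995 FPKM, and Col3a1, a marker of fibroblast matrix, at or under 0.00617 FPKM.

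Of the remaining tested collagens, Col20a1 is a collagen of the fibril-associated group. It was at 0.444 to 0.538 FPKM in ES, 0.572 to 0.692 in 2iLIF and 2.19 to 2.43 in EPSCM. Its difference of 1.14 ± 0.05 against ES (limma adjusted p = 2.00e-07) fell to 0.97 after quantile normalization, and that of 1.01 ± 0.05 against 2iLIF to 0.68, and to 0.98 without 2iLIF replicate 3. Col13a1, a transmembrane collagen, was at 1.47 ± 0.242 FPKM in ES, 0.475 ± 0.0476 in 2iLIF and 1.93 ± 0.0340 in EPSCM (SD, n = 3) and was not called. Its difference of 0.99 ± 0.07 between EPSCM and 2iLIF (limma adjusted p = 2.73e-06) was just short of the fold limit. It passed with pseudocounts of 0.1 and 0.5 and without 2iLIF replicate 2, at up to 1.82. The difference of -0.74 ± 0.07 in 2iLIF against ES passed with both pseudocounts.

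The other 35 collagens, 2 lysyl oxidases and 4 laminins, 41 members in all, did not pass the filter. The highest single value among them was 1.11 FPKM, for Col2a1 in EPSCM, and 18 of the 41 stayed under 0.1 FPKM in all libraries. Several low collagens still differed in level between the media, as values without a test. Col23a1, a transmembrane collagen, was at 0.0350 ± 0.00884 FPKM in ES, 0.0892 ± 0.0259 in 2iLIF and 0.642 ± 0.0632 in EPSCM. Col6a4 was highest in ES, at 0.692 ± 0.0724 FPKM in ES against 0.126 ± 0.00565 in EPSCM and 0.0326 ± 0.00857 in 2iLIF. Col8a2, a network collagen of the corneal basement membrane, was at 0.278 ± 0.0210 FPKM in ES and 0.359 ± 0.0377 in EPSCM but 0.0188 ± 0.00525 in 2iLIF. Col11a1 was highest in 2iLIF, at 0.903 ± 0.0443 FPKM, against 0.241 ± 0.0530 in ES and 0.396 ± 0.0416 in EPSCM.

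Of 7 tested laminin chains, 1 (Lamb2) was called higher in EPSCM than in ES, where 11.7% of all tested genes were. In EPSCM against 2iLIF 1 was lower (5.91% of all genes), and in 2iLIF against ES 2 were higher, Lamb2 among them (7.62%). With 7 chains such counts are too small to be told apart from these shares. Promoter stretches of the beta chains Lamb1 and Lamb2 are set side by side, since their levels differed in opposite directions between ES and the other media. The stretches run upstream of the RefSeq transcription start (GRCm38.p6, plus strand for both, 5′ to 3′) from base -250 to the first base annotated as untranslated exon in GENCODE M21. Lamb1 lies at chr12:31265043-31265233 and Lamb2 at chr9:108479612-108479735. Capitals mark CCAAT and GGGCGG, searched on both strands, the second here as its complement CCGCCC.

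Lamb1: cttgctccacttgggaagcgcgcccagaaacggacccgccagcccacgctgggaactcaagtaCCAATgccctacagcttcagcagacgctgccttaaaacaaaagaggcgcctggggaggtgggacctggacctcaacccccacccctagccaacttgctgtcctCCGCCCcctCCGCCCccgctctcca

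Lamb2: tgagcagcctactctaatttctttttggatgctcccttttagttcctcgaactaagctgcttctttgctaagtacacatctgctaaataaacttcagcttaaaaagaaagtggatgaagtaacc

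The Lamb1 stretch has 63.9% G and C and holds 1 CCAAT and 2 GGGCGG matches, and the Lamb2 stretch has 37.9% and holds neither. A search for TATAAA, for the E-box-like ACGTG and for the GATA motif AGATAA found none in either stretch. The full windows of the table are longer than these stretches and run on past the start, and in them Lamb1 has 63.7% and Lamb2 44.0% G and C. Over all 32851 such windows, the median was 52.7%, 37.4% held CCAAT, 35.7% held GGGCGG, 13.6% held TATAAA, 19.6% held ACGTG and 11.2% held AGATAA. A match is a description of the letters and not a binding site.

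Lamb1, the beta chain of the first embryonic laminins, was at 24.7, 23.1 and 22.6 FPKM in ES, 12.3, 11.1 and 10.4 in 2iLIF and 13.9, 16.7 and 14.1 in EPSCM. Lamb2, the beta chain known from kidney and synaptic basement membranes, was at 7.77, 6.76 and 6.98 FPKM in ES, 17.2, 15.4 and 15.5 in 2iLIF and 24.2, 27.5 and 23.9 in EPSCM. The ES libraries had the highest Lamb1 and the lowest Lamb2 values of all 9, and no media overlapped for either gene. Lamb2 was higher than in ES by 1.68 ± 0.08 in EPSCM (limma adjusted p = 1.70e-07) and by 1.06 ± 0.08 in 2iLIF (3.25e-06), the second of which dropped to 0.93 after quantile normalization. Lamb1 was at -0.63 ± 0.09 in EPSCM against ES and at -0.999 ± 0.09 in 2iLIF against ES (adjusted p = 9.03e-06), just short of the fold limit. It passed that limit in 8 of the 19 other settings, among them both scalings, at up to -1.06.

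The ratio of Lamb2 to Lamb1 within a library was chosen after the values were seen. It was 0.305 ± 0.0115 in ES, 1.43 ± 0.0601 in 2iLIF and 1.70 ± 0.0470 in EPSCM (SD, n = 3). Lamb1 was thus the main beta chain message in every ES library and Lamb2 in every library of the other media. Lamb3, the beta chain of epithelial hemidesmosomes, stayed at or under 0.556 FPKM.

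Among the alpha chains, which carry the sites for cell receptors, Lama1 was at 23.5, 20.8 and 20.8 FPKM in ES, 30.8, 27.5 and 27.7 in 2iLIF and 16.1, 18.6 and 16.4 in EPSCM. Lama5, the alpha chain of the laminin on which pluripotent cells are often grown, was at 27.9, 24.2 and 24.7 FPKM in ES, 45.1, 42.3 and 42.2 in 2iLIF and 33.2, 39.2 and 34.4 in EPSCM. Neither was called in any comparison. Both were highest in 2iLIF, and they parted in EPSCM, where Lama1 was lowest. The largest differences were 0.74 ± 0.08 for Lama5 in 2iLIF against ES (limma adjusted p = 3.83e-05) and -0.72 ± 0.08 for Lama1 in EPSCM against 2iLIF (4.12e-05). The ratio of Lama5 to Lama1, also chosen after the values were seen, was 1.18 ± 0.0143 in ES, 1.51 ± 0.0394 in 2iLIF and 2.08 ± 0.0219 in EPSCM. Lama3 was at 0.505 to 0.718 FPKM in ES and 2iLIF and 1.19 to 1.34 in EPSCM and was not called, and Lama2 and Lama4 stayed at or under 0.267 FPKM.

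Lamc1, the gamma chain shared by most laminins, was the most abundant laminin message. It was at 106, 97.4 and 96.2 FPKM in ES, 128, 121 and 122 in 2iLIF and 89.8, 95.8 and 89.1 in EPSCM, so that the media differed by less than the fold limit. Its level was 4.25 ± 0.0340 times that of Lamb1 in ES, 11.004 ± 0.664 times in 2iLIF and 6.18 ± 0.383 times in EPSCM.

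**Figure D3:**
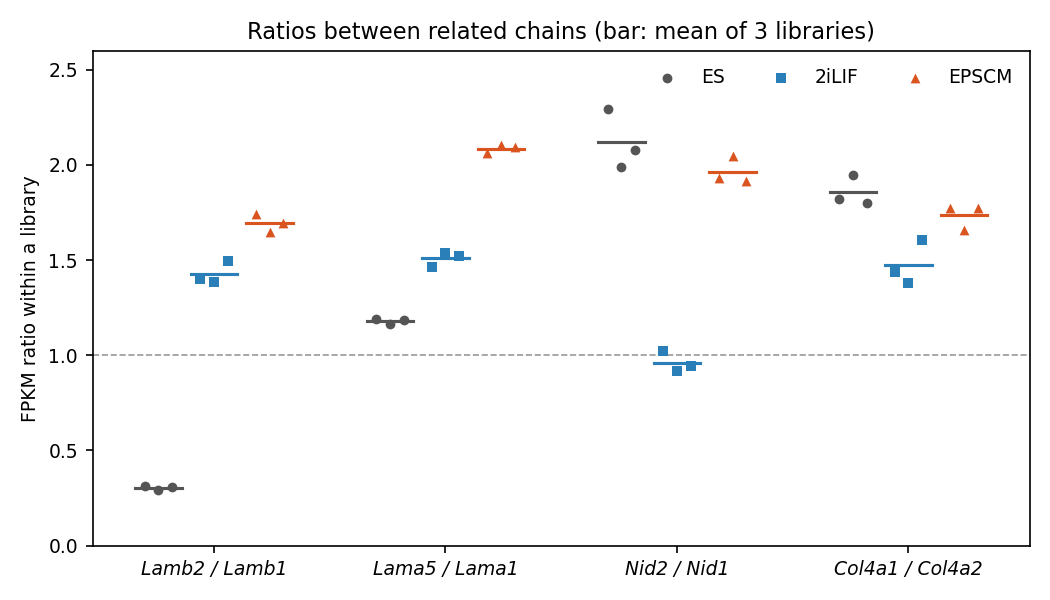
FPKM ratios between related chains within each of the 9 libraries, with 1 point per library and a bar at the mean of 3, for Lamb2 to Lamb1, Lama5 to Lama1, Nid2 to Nid1 and Col4a1 to Col4a2, and a dashed line where both are equal. Lamb2 to Lamb1 lies below 1 in ES and above 1 in 2iLIF and EPSCM, and Nid2 to Nid1 is near 1 in 2iLIF and near 2 in the others.

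The nidogens link the laminin and collagen IV networks, and both were lowest in ES. Nid1 was at 33.1, 35.2 and 33.2 FPKM in ES, 120.5, 124 and 123 in 2iLIF and 78.7, 83.1 and 79.3 in EPSCM. Nid2 was at 75.8, 70.2 and 69.0 FPKM in ES, 123, 114 and 116 in 2iLIF and 152, 170.1 and 152 in EPSCM. Nid1 peaked in 2iLIF and Nid2 in EPSCM, with no overlap between media for either. Nid1 was higher than in ES by 1.22 ± 0.05 in EPSCM (limma adjusted p = 7.63e-08) and by 1.83 ± 0.05 in 2iLIF (7.62e-09). Nid2 was higher than in ES by 1.13 ± 0.07 in EPSCM (5.80e-07) and by 0.71 ± 0.07 in 2iLIF, which missed the fold limit. The sum of both was close in 2iLIF and EPSCM, at 240.3 ± 3.09 FPKM in 2iLIF and 238 ± 12.8 in EPSCM, against 105 ± 3.36 in ES. Within a library Nid2 was 2.12 ± 0.155 times Nid1 in ES, 0.962 ± 0.0550 times in 2iLIF and 1.97 ± 0.0718 times in EPSCM. Exons of Nid2 share 8.45% of their bases with Rtraf on the other strand, and the sources used here do not say whether strand was used in counting.

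Fibronectin, which binds integrins and collagens and forms fibrils around cells, was the most abundant member. Fn1 was at 124, 118 and 116 FPKM in ES, 312, 297 and 293 in 2iLIF and 421, 459 and 426 in EPSCM. The media were ordered ES, 2iLIF and EPSCM without overlap. It was higher than in ES by 1.86 ± 0.06 in EPSCM (limma adjusted p = 1.96e-08) and by 1.33 ± 0.06 in 2iLIF (1.03e-07), and the difference between EPSCM and 2iLIF was 0.53 ± 0.06. By level it ranked 726 of all genes in ES, 218 in 2iLIF and 158 in EPSCM. Fn1 and Lamc1 lie on chromosome 1, whose 657 tested genes had a median difference of -0.29 in EPSCM against ES and -0.28 in 2iLIF against ES, where the other autosomes apart from chromosome 14 had 0.11 and 0.040. The part of that shift in the Fn1 and Lamc1 values was not tested.

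Hspg2, perlecan, was at 33.2, 30.3 and 30.5 FPKM in ES, 33.6, 32.1 and 32.3 in 2iLIF and 50.8, 57.8 and 52.0 in EPSCM. The first 2 media overlapped, and EPSCM exceeded ES by 0.75 ± 0.06 (limma adjusted p = 6.37e-06), under the fold limit. Sparc, a calcium-binding protein that helps collagen IV assembly and is made in bulk by parietal endoderm, was nearly level, at 83.4 to 85.0 FPKM in ES, 95.2 to 97.9 in 2iLIF and 103 to 105 in EPSCM. Its largest difference was 0.30 ± 0.04, in EPSCM against ES.

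Tinagl1, a secreted basement membrane protein related to tubulointerstitial nephritis antigen, had the largest difference of all members between EPSCM and ES and was called higher in all 3 comparisons. It was at 1.19, 1.05 and 1.36 FPKM in ES, 10.3, 8.86 and 9.09 in 2iLIF and 38.5, 43.9 and 38.5 in EPSCM. The 3 media stood apart in steps, with ES lowest. The differences were 4.23 ± 0.08 for EPSCM against ES (limma adjusted p = 2.84e-09), 1.99 ± 0.08 for EPSCM against 2iLIF (1.03e-07) and 2.24 ± 0.08 for 2iLIF against ES (5.10e-08). Because of this range, the 250 bases before the upstream of its 2 RefSeq starts are shown (GRCm38.p6, chr4:130175123-130175372, minus strand, 5′ to 3′). They hold none of the 5 motifs searched in the beta chain promoters, so no base is in capitals. The full windows, which run on past the start, hold 1 match to ACGTG for the upstream start and 4 matches to GGGCGG for the downstream start. FPKM per gene does not tell which start was used.

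Tinagl1: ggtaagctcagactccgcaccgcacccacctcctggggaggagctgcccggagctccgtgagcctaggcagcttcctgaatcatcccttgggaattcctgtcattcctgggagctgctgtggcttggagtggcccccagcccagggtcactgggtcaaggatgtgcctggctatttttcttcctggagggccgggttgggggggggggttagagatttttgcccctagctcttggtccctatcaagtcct

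Loxl2 made up most of the lysyl oxidase message in ES and EPSCM. This enzyme, which crosslinks collagen IV in basement membranes, was at 11.3, 11.7 and 10.8 FPKM in ES, 0.561, 0.549 and 0.547 in 2iLIF and 29.05, 30.7 and 29.8 in EPSCM. No media overlapped, and 2iLIF was lowest. Loxl2 was higher in EPSCM than in ES by 1.33 ± 0.05 (limma adjusted p = 7.88e-08) and than in 2iLIF by 4.31 ± 0.05 (3.67e-10), and lower in 2iLIF than in ES by -2.98 ± 0.05 (1.56e-09). In mean FPKM, EPSCM had 54.0 times the level of 2iLIF and 2.65 times that of ES. Loxl2 lies on chromosome 14, whose 420 tested genes had median differences of -0.065, 0.084 and -0.175 in the 3 comparisons, and 5.70% of its exonic bases are shared with other annotated genes.

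Loxl3 had the opposite order at a low level. It was at 0.557, 0.567 and 0.633 FPKM in ES, 1.26, 1.26 and 1.15 in 2iLIF and 0.0406, 0.112 and 0.173 in EPSCM. The difference between EPSCM and 2iLIF was -1.01 ± 0.06 (limma adjusted p = 5.92e-07), and it was no longer called after median ratio scaling (-0.99) or without EPSCM replicate 1 (-0.96). Of its exonic bases 11.6% are shared with Htra2, so its value is uncertain. Loxl1, known for crosslinking elastin, was at 1.34, 1.18 and 1.11 FPKM in ES, 0.431, 0.238 and 0.265 in 2iLIF and 0.693, 0.841 and 0.742 in EPSCM and was not called. Its difference of -0.76 ± 0.07 in 2iLIF against ES passed the fold limit with pseudocounts of 0.1 and 0.5. Loxl4 stayed at or under 0.230 FPKM and Lox, the founding member of the family, at or under 0.0501 FPKM. The family summed to 13.2 ± 0.445 FPKM in ES, 2.13 ± 0.153 in 2iLIF and 30.9 ± 0.956 in EPSCM.

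**Figure D4:**
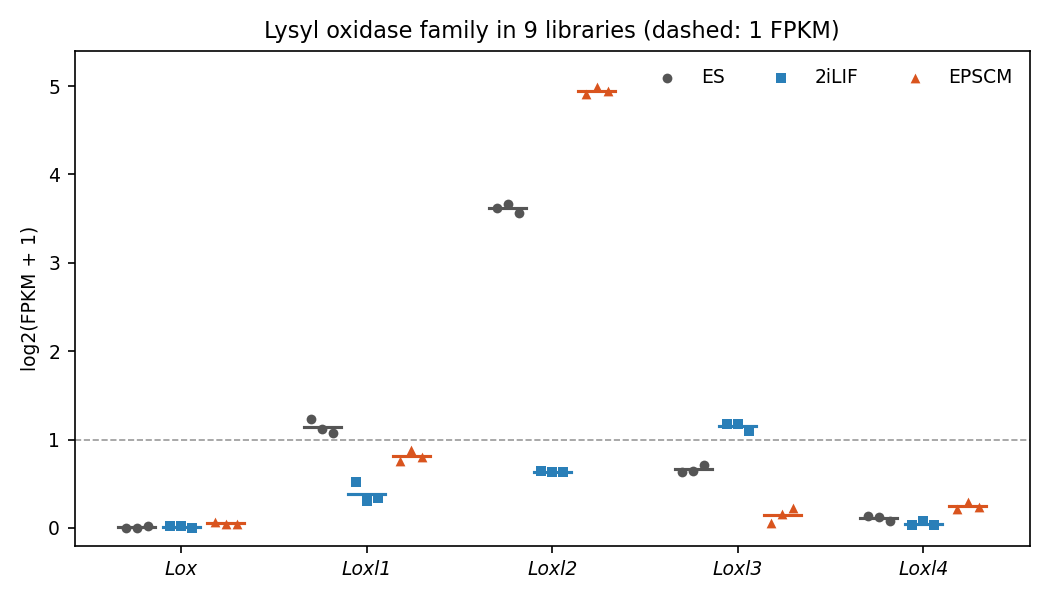
Log2(FPKM + 1) of the 5 lysyl oxidase genes in the 9 libraries, with 1 point per library, a bar at the mean of 3 and a dashed line at 1 FPKM. Loxl2 is above the line in ES and EPSCM and below it in 2iLIF, Loxl3 is above it only in 2iLIF, and Lox and Loxl4 are below it in every library.

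Enzymes that modify, fold and export collagen were read from a separate list, of which 28 genes were in the table and 21 were tested. In EPSCM against ES 8 were higher and 2 lower (11.7% and 7.97% of all tested genes), with a median difference of 0.82. Against 2iLIF 6 were higher and 0 lower by limma (10.1% and 5.91% of all tested genes), with a median of 0.45. At an unadjusted limma p under 0.05, without a fold limit, 17 lay above and 1 below. At that p 14 lay above and 6 below in EPSCM against ES, and 8 above and 11 below in 2iLIF against ES. The share of all tested genes at that p was not counted. In 2iLIF against ES 2 were higher and 5 lower (7.62% and 7.12%). P4ha1, a catalytic subunit of the prolyl 4-hydroxylase that stabilises the collagen helix, was at 13.3 to 15.0 FPKM in ES, 9.69 to 10.3 in 2iLIF and 83.8 to 86.6 in EPSCM. It was higher in EPSCM by 2.49 ± 0.06 against ES (limma adjusted p = 5.54e-09) and by 2.97 ± 0.06 against 2iLIF (2.84e-09). Its paralogue P4ha2 was higher by 1.90 ± 0.08 and 3.37 ± 0.08, and the lysyl hydroxylase Plod2 by 1.62 ± 0.18 and 1.79 ± 0.18. P4ha1, P4ha2 and Plod2 thus rose in EPSCM in both comparisons.

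Other members of this list did not follow. Fkbp10, an endoplasmic reticulum prolyl isomerase that acts on procollagen, was at 18.9 to 22.4 FPKM in ES but 0.939 to 1.40 in 2iLIF and 1.97 to 2.69 in EPSCM. It was lower than in ES by -2.70 ± 0.11 in EPSCM (limma adjusted p = 1.06e-07) and by -3.30 ± 0.11 in 2iLIF (3.22e-08). Pcolce2, which enhances procollagen cleavage, was lower than in ES by -1.09 ± 0.06 in EPSCM (adjusted p = 3.57e-07) and by -1.41 ± 0.06 in 2iLIF (adjusted p = 9.00e-08). Adamts14, a procollagen peptidase, was at 5.61 to 6.54 FPKM in ES and 5.02 to 6.20 in EPSCM, which overlapped, and at 0.288 to 0.357 in 2iLIF. Loxl2, Col5a3 and Adamts14 had a 2iLIF level under 1 FPKM beside ES and EPSCM levels above it. So did Col13a1, and Pxdn, Vwa1 and Mmp2 of other lists, among further genes. The share of all tested genes with this feature was not counted.

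**Figure D5:**
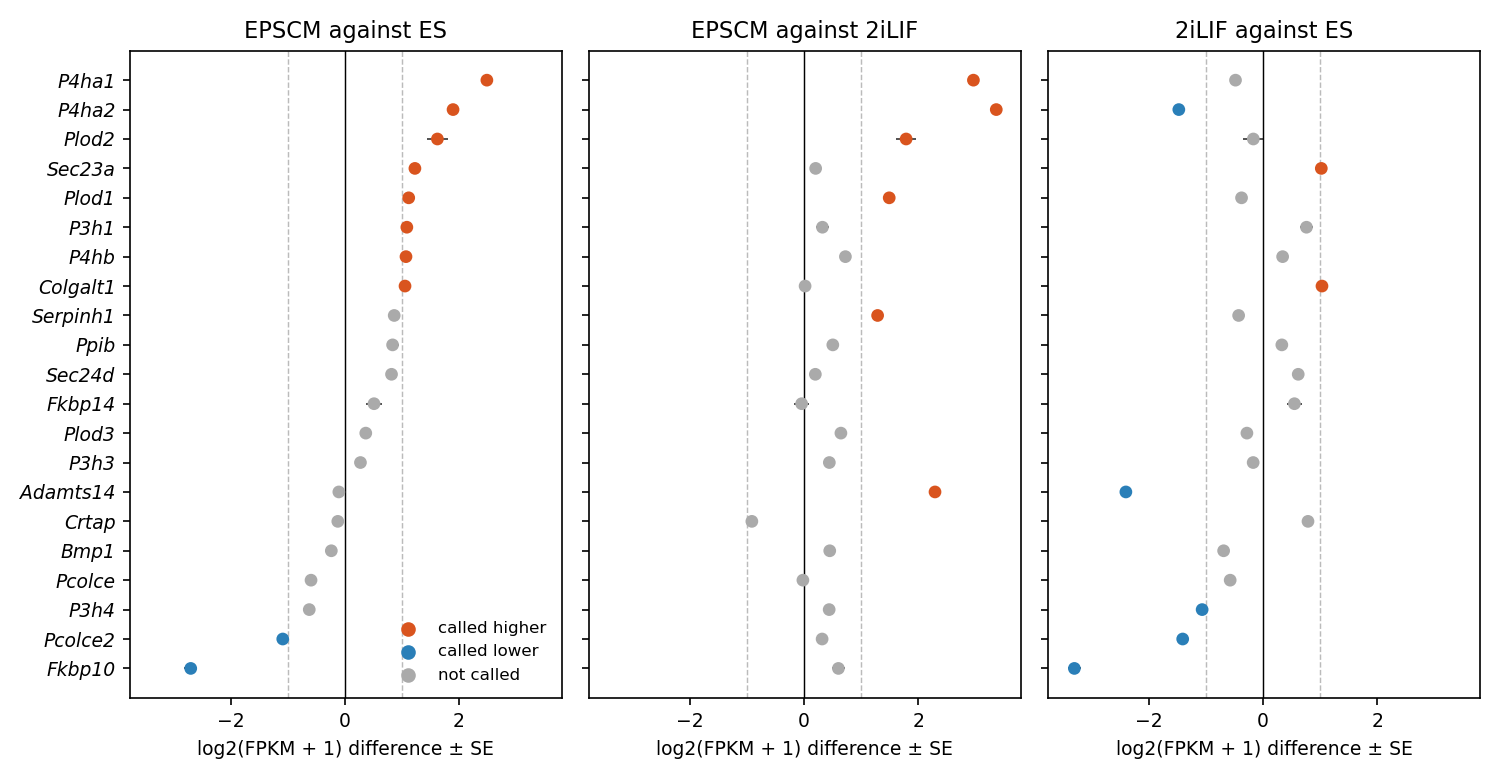
Differences in mean log2(FPKM + 1) with standard errors for the 21 tested genes that modify, fold or export collagen, in the 3 comparisons, sorted by EPSCM against ES and coloured by call, with dashed lines at 1 in either direction. P4ha1, P4ha2 and Plod2 are to the right in both EPSCM panels, and Fkbp10 is at -2.70 in EPSCM against ES and -3.30 in 2iLIF against ES.

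Among other basement membrane proteins, 9 of 20 genes were tested. In EPSCM 4 were higher and 1 lower than in ES (11.7% and 7.97% of all tested genes). Against 2iLIF 4 were higher and 1 lower in EPSCM (10.1% and 5.91%). In 2iLIF 1 was higher and 2 were lower than in ES (7.62% and 7.12%). Pxdn, peroxidasin, which forms the sulfilimine crosslinks of collagen IV, was at 1.75 to 1.87 FPKM in ES, 0.299 to 0.368 in 2iLIF and 7.34 to 8.56 in EPSCM, and its difference was 1.66 ± 0.06 against ES (limma adjusted p = 6.51e-08) and 2.73 ± 0.06 against 2iLIF (6.06e-09). It had the same order of media as Col4a1, Col4a2 and Loxl2. The means of Col5a3, Col13a1, P4ha1, P4ha2 and Plod2, among further genes, had that order too. The share of all tested genes with this order was not counted. Agrn, the proteoglycan agrin, rose to 95.7 ± 5.55 FPKM in EPSCM from 31.5 ± 0.926 in ES (SD, n = 3), and Fbln1, fibulin-1, to 68.5 ± 7.27 from 19.6 ± 1.65. Ntn1, a guidance protein with a laminin-like domain, fell to 1.84 to 2.03 FPKM in EPSCM, from means of 10.7 ± 0.600 in ES and 39.6 ± 2.05 in 2iLIF. Npnt, nephronectin, an integrin ligand, differed by 1.61 ± 0.09 between EPSCM and 2iLIF (limma adjusted p = 4.76e-07). Vwa1, which binds perlecan, was lower in 2iLIF than in ES by -2.10 ± 0.08 (adjusted p = 4.06e-08), at 0.0268 ± 0.0187 FPKM against 3.41 ± 0.421.

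Receptors for these proteins had 18 of 23 genes tested, with 5 higher and 3 lower in EPSCM than in ES (11.7% and 7.97% of all tested genes). Against 2iLIF 4 were higher and 0 lower in EPSCM by limma (10.1% and 5.91%), with 10 above and 5 below at an unadjusted p under 0.05. The share of all tested genes at that unadjusted p was not counted. In 2iLIF 2 were higher and 3 lower than in ES (7.62% and 7.12%). Dag1, dystroglycan, which binds laminin and agrin, was at 39.7 ± 2.30 FPKM in ES, 58.4 ± 3.89 in 2iLIF and 105 ± 9.93 in EPSCM, and its difference of 1.38 ± 0.08 against ES passed (limma adjusted p = 6.63e-07). Itgav, the alpha V integrin of fibronectin and vitronectin, differed by 1.71 ± 0.07 from ES in EPSCM and by 1.61 ± 0.07 in 2iLIF. Itga6, the main laminin integrin of stem cells, was at 30.8 ± 1.97, 28.1 ± 1.35 and 35.0 ± 2.98 FPKM in ES, 2iLIF and EPSCM and was not called. Ddr1, a receptor tyrosine kinase for collagen, was lower than in ES by -1.41 ± 0.11 in EPSCM (adjusted p = 3.60e-06) and by -1.32 ± 0.11 in 2iLIF. The syndecan Sdc1, a heparan sulfate proteoglycan of the cell surface, was at 5.48 ± 0.176 FPKM in 2iLIF against 21.7 ± 2.12 in ES and 24.6 ± 2.51 in EPSCM, and Sdc3 differed by 1.42 ± 0.08 between 2iLIF and ES. Integrins Itga5, the fibronectin receptor chain, and Itgb3, with the syndecan Sdc4, were higher in EPSCM than in 2iLIF by 1.47 ± 0.09, 1.59 ± 0.06 and 1.09 ± 0.10. Itga9 was lower than in ES by -2.05 ± 0.05 in 2iLIF and by -1.10 ± 0.05 in EPSCM.

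Collagen IV and laminins are abundant in parietal endoderm and in fibroblasts, so markers of other cell types are given beside the matrix values. In bulk RNA, more cells of a type and more RNA per cell cannot be told apart. The 17 primitive and parietal endoderm markers summed to 16.2 to 18.1 FPKM in ES, 15.5 to 19.6 in 2iLIF and 30.4 to 35.4 in EPSCM, with 6 of 17 under 1 FPKM in all libraries. A large part of the 2iLIF sum was Cited1, at 8.89 ± 2.16 FPKM there, 1.05 ± 0.559 in ES and 7.27 ± 1.44 in EPSCM. Of the 10 tested, 3 were higher and 1 lower in EPSCM than in ES (11.7% and 7.97% of all tested genes). At an unadjusted limma p under 0.05, 8 lay above and 1 below. Against 2iLIF, 3 were higher and 0 lower in EPSCM (10.1% and 5.91%), with 8 above and 0 below at that p. In 2iLIF 1 was higher and 2 were lower than in ES (7.62% and 7.12%), with 3 above and 7 below. These shares belong to the calls, and the share of all tested genes at the unadjusted p was not counted. Gata6 was at 0.258 ± 0.0475 FPKM in 2iLIF, 0.675 ± 0.0520 in ES and 3.17 ± 0.245 in EPSCM. Sox17, a defining endoderm factor, was at 0.296 ± 0.135 FPKM in ES, 0.422 ± 0.112 in 2iLIF and 0.554 ± 0.121 in EPSCM, and Foxa2 was at or under 0.219 in every library. Other markers without a call were highest in EPSCM. Mean Pdgfra was 0.242, 0.577 and 1.04 FPKM in ES, 2iLIF and EPSCM, mean Dab2 1.04, 0.521 and 2.04, and mean Foxq1 0.272, 0.198 and 0.648. Pth1r and Srgn were also highest there, while Cubn, Thbd and Hnf4a had their highest mean in ES. Sox7 was lower in EPSCM than in ES by -1.88 ± 0.05 (limma adjusted p = 1.03e-08). Gata6 reached 1 FPKM in EPSCM only and Sox7 in ES only, and they entered the test through that medium. Gata4 and Cited1 were higher in EPSCM than in ES by 1.21 ± 0.10 and 2.03 ± 0.22, and the visceral endoderm genes Lrp2 and Amn were higher in EPSCM than in 2iLIF by 1.98 ± 0.07 and 1.36 ± 0.09. The part of endoderm-like cells in the matrix values was not tested.

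The 14 fibroblast and feeder markers summed to 18.2 to 19.9 FPKM in ES, 4.97 to 5.43 in 2iLIF and 15.2 to 17.5 in EPSCM, with 10 of 14 under 1 FPKM in all libraries. Most of the sum in ES, but not in the other media, was Thy1, at 14.4 ± 1.12 FPKM in ES, 0.410 ± 0.0412 in 2iLIF and 6.02 ± 0.762 in EPSCM, while Postn, Dcn, Lum and Prrx1 stayed at or under 0.0557 FPKM. Of 4 tested, 2 (Pdgfrb and Twist1) were higher and 1 (Thy1) lower in EPSCM than in ES, 2 (Thy1 and Twist1) were higher in EPSCM than in 2iLIF, and 1 (Thy1) was lower in 2iLIF than in ES. The 12 trophoblast markers summed to 33.4 to 38.8 FPKM in ES, 77.4 to 89.0 in 2iLIF and 58.3 to 69.3 in EPSCM. Of these 12, 5 were under 1 FPKM in all libraries. Elf5 was at or under 0.0487 FPKM, and Prl3d1 and Tpbpa were listed at 0. Mean Gata3 was 0.0331, 0.289 and 0.613 FPKM in ES, 2iLIF and EPSCM, and mean Hand1 0.139, 0.0340 and 0.866. Krt7 had its highest mean in 2iLIF, at 0.676 FPKM. Most of the 2iLIF sum was Krt8, at 44.3 to 52.1 FPKM there, 6.47 to 7.36 in ES and 5.39 to 7.13 in EPSCM. The largest part in ES and EPSCM was Tfap2c. It was at 17.4 to 19.8 FPKM in ES, 20.4 to 23.2 in 2iLIF and 34.8 to 41.8 in EPSCM. Of 6 tested, 1 (Eomes) was higher in EPSCM than in ES, 1 (Ascl2) was higher and 2 (Krt8 and Cdx2) lower in EPSCM than in 2iLIF, and 3 (Krt8, Cdx2 and Eomes) were higher and 1 (Ascl2) lower in 2iLIF than in ES. Beside these counts, 11.7% of all tested genes were higher and 7.97% lower in EPSCM than in ES. The shares were 10.1% and 5.91% in EPSCM against 2iLIF, and 7.62% and 7.12% in 2iLIF against ES. Twist1 reached 1 FPKM in EPSCM only and Cdx2 in 2iLIF only, and they entered the test through that medium. The part of these cell types in the matrix values was not tested.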

How the data were processed

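RNA of 9 libraries of E14 cells, 3 per medium, was measured by stranded messenger RNA sequencing, per the labels. The deposited table holds FPKM values per gene and library, made by the authors; the submitters' processing notes list STAR and Cuffnorm as tools and mm9 as genome build, with no roles. The sources used here do not give tool versions, annotation, library scaling or strand use. Every column was matched to its library by title.

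Values were taken as log2(FPKM + 1) with a pseudocount of 1, and a gene was kept if 3 or more of the 9 libraries reached 1 FPKM. One limma model (limma 3.58.1, R 4.3.3, empirical Bayes with a trend) covered all 9 libraries and 12330 genes, with Benjamini-Hochberg adjustment per comparison over all of them. On simulated data for EPSCM against ES, 100 of 100 genes changed by 1.5 and 99 of 100 changed by 2 (log2) were recovered, and no unchanged gene was called, in a run on 11715 genes. Changed genes were drawn from those with a mean log2(FPKM + 1) above 3, with independent normal noise. The changes lay beyond the fold limit, so the run does not bear on low genes or differences near that limit. Within a medium, Pearson's r across genes was 0.9855 to 0.9967, and no 2 columns were identical. Genes were not independent in that correlation.

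Given in full were members called in a comparison whose mean reached 5 FPKM in some medium, and their subunit partners; of other lists, up to 4 called genes per comparison whose mean reached 1 FPKM. Itga6, the low collagens and marker genes that were not called were named after their values were seen. One tested member enters the counts and sums but is not reported here by itself. The members and lists were chosen with earlier results of these data known. Chromosomes, exon overlap and transcript lengths came from RefSeq and GENCODE M21 tables of GRCm38, matched by symbol, and promoters from the RefSeq table of GRCm38.p6, which held 45 of 66 members and 15 of the 25 tested. The files use mm9, so no coordinates beyond those of the sequences shown are given. Alternatives covered the pseudocount, the filter, scaling, the samples fitted, the variance prior, a covariate and each library left out.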

Additional observations from a re-analysis of the deposited data

How the results depend on the processing

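Of 75 differences (25 tested members in 3 comparisons), 14 changed their call in at least 1 of 19 other settings, and none reversed in the settings run. The counts of members called moved by more than 1.5 times in these settings. With a pseudocount of 0.1, 2 members instead of 1 were lower in EPSCM than in ES, and 6 instead of 3 were lower in 2iLIF than in ES, as with 0.5. Testing just genes whose mean reached 5 FPKM, 5 instead of 8 were higher and 1 instead of 2 lower in EPSCM than in 2iLIF; fewer genes are tested there. Median ratio scaling, and leaving out the 3 libraries that stand apart together, an alternative chosen after seeing the data, also gave 1 lower. Leaving out 1 library at a time gave 9 to 10 higher and 1 to 1 lower in EPSCM against ES, 6 to 8 higher and 1 to 2 lower in EPSCM against 2iLIF, and 5 to 5 higher and 3 to 4 lower in 2iLIF against ES. The count lower than 2iLIF was 1 without any one of 2iLIF replicates 1, 2 or 3 or EPSCM replicate 1: without a 2iLIF library Loxl3 reaches 1 FPKM in too few libraries to be tested. The F test passed 23 to 24 members when 1 library was left out, which was every member still tested. Loxl1 left the test without an ES library, and Col20a1 and Lama3 without an EPSCM library. The count of 9 higher in EPSCM than in ES likewise reflects that Col20a1 was not tested. With no filter 50 members passed the F test instead of 25, since more are tested. No paired analysis was possible because the labels give the media no shared replicate numbers. Levels under about 0.1 FPKM rest on few fragments, and depth is known only roughly.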

Other observations

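Of 23 listed matrix proteases and inhibitors, 15 were tested. In EPSCM 8 were higher and 1 lower than in ES (11.7% and 7.97% of all tested genes). Against 2iLIF 6 were higher and 0 lower in EPSCM by limma (10.1% and 5.91%), with 11 above and 3 below at an unadjusted p under 0.05. The share of all tested genes at that unadjusted p was not counted. In 2iLIF 2 were higher and 2 lower than in ES (7.62% and 7.12% of all tested genes). Mmp2, a gelatinase, was at 8.49 ± 0.834 FPKM in ES and 8.43 ± 0.916 in EPSCM but at 0.921 ± 0.0827 in 2iLIF (SD, n = 3). Mmp2 was lower in 2iLIF than in ES by -2.30 ± 0.09 (limma adjusted p = 6.85e-08). Mmp14, a membrane-bound collagenase that activates Mmp2, was at 16.1 ± 1.44 FPKM in ES, 3.11 ± 0.490 in 2iLIF and 4.27 ± 0.531 in EPSCM. It was lower than in ES by -1.69 ± 0.11 in EPSCM (limma adjusted p = 1.08e-06) and by -2.06 ± 0.11 in 2iLIF. The inhibitors Reck, Timp2 and Timp3 were higher in EPSCM than in ES by 2.14 ± 0.06, 1.22 ± 0.07 and 1.47 ± 0.09. Timp3 reached 1 FPKM in EPSCM only and entered the test through that medium. Timp1, with 37.4 ± 4.002 FPKM in ES and 35.7 ± 4.41 in EPSCM, was not called between these media. Mmp15 was higher in EPSCM than in ES by 1.60 ± 0.07, and the lysosomal protease Ctsl by 1.66 ± 0.07.

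Elastic fibre and microfibril genes had 7 of 15 tested, of which 3 were higher and 0 lower by limma in EPSCM than in ES, and likewise than in 2iLIF (3 and 2 lay below at an unadjusted p under 0.05). The shares over all tested genes were 11.7% and 7.97% against ES, and 10.1% and 5.91% against 2iLIF. In 2iLIF 1, Efemp2, was higher than in ES (7.62%), by 1.26 ± 0.09. None were lower (7.12%), while 5 lay below at an unadjusted limma p under 0.05. For none of these unadjusted counts was the share of all tested genes counted. Eln, elastin, was at 0.118 ± 0.0397 FPKM in ES, 0.0730 ± 0.0355 in 2iLIF and 1.58 ± 0.201 in EPSCM. Eln and Ltbp3 reached 1 FPKM in EPSCM only and entered the test because they were high there. Ltbp1 and Ltbp3, which anchor latent TGF-beta to microfibrils, were higher in EPSCM than in ES by 1.57 ± 0.08 and 2.17 ± 0.06, and than in 2iLIF by 2.30 ± 0.08 and 2.65 ± 0.06.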
